A study of Arabidopsis thaliana with 72 samples.

Results

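Roots of the Arabidopsis thaliana double mutant phr1phl4 grown without phosphate held far less RNA of many phosphate starvation genes than roots of the wild type Col (genotype col-0) on the same medium, and far more RNA of nuclear photosynthesis genes. The comparison took the 3 libraries labelled phr1phl4 and the 3 labelled Col among the phosphate-deficient samples, 6 of the 72 libraries of the series, and all 33602 genes of the deposited table. The series covers 12 genotypes on both media in 24 groups of 3 libraries. Of the genes, 21206 reached 1 RPKM (reads scaled by gene length and library size) in at least 3 libraries and were tested. The groups compared are phr1phl4, phr1, phl4 and Col without phosphate, and phr1phl4 and Col with phosphate. The phl1 mutant on both media serves to pick a gene set, and the other genotypes without phosphate give ranges for a few genes. All are whole roots of seedlings aged 8 days, raised on plates with sucrose that were set with agar or agarose, and the labels do not tell these plates apart by library. The mutant alleles are not named in the labels, which also do not say whether replicates came from separate plates. The series' design calls the replicates biological, and if they shared a culture the p-values measure technical spread only. In bulk roots, fewer cells of a type and less RNA per cell cannot be told apart.

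PHR1 and its relatives PHL1 to PHL4 are MYB coiled-coil transcription factors that bind a short DNA element named P1BS. When phosphate is ample, SPX proteins loaded with inositol pyrophosphates hold PHR1 off its targets. When phosphate runs short, PHR1 switches on transporters, secreted phosphatases, enzymes that replace phospholipids with galactolipids and sulfolipids, and microRNAs of the miR399 family, which remove the mRNA of the ubiquitin-conjugating enzyme PHO2.

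The transcripts of the mutated genes were read before other results. PHR1 (AT4G28610) had 3.53, 3.14 and 2.79 RPKM in the 3 phr1phl4 libraries and 3.19, 3.04 and 2.55 RPKM in phr1, against 21.3, 16.9 and 21.4 RPKM in phl4 and 20.0, 19.2 and 17.4 RPKM in Col. The libraries carrying phr1 lay apart from the others, with a log2 fold change of -2.26 ± 0.14 (SE) for phr1phl4 over Col (limma adjusted p = 7.42e-20), although reads of the gene that overlaps PHR1 could be counted with it. PHL4 (AT2G20400) had 4.51, 4.29 and 3.84 RPKM in phr1phl4 and 2.76, 3.14 and 2.73 RPKM in phl4, against 10.3, 10.6 and 9.97 RPKM in phr1 and 7.36, 7.01 and 7.49 RPKM in Col. These 4 groups did not overlap, but PHL4 was also low without phosphate in phl2 (3.21 to 3.64 RPKM) and phl3 (3.29 to 3.82 RPKM), which are not named for phl4, so its level does not set the phl4 libraries apart. The log2 fold change of phr1phl4 was -0.67 over Col, short of the size asked for a call, and -1.11 over phr1, which was called. Of the other 3 family members, PHL1 (0.56), PHL3 (0.84) and PHL2 (-0.33) were not called over Col.

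The libraries differed in a technical way that runs along gene length. The slope of log2 RPKM deviation on log gene length was -0.0654 in phr1phl4 replicate 1, -0.113 in replicate 2 and -0.265 in replicate 3, against -0.0222, -0.0228 and 0.0289 in Col. Clustering of such slopes over all 72 libraries into 3 classes put phr1phl4 replicate 1 with all 3 Col libraries and replicates 2 and 3 in another class. All phr1 libraries were in the class of Col, and phl4 replicates 1 and 3 were not. With phosphate, Col replicate 1 (slope -0.282) and phr1phl4 replicate 2 (-0.155) stood in the second class, apart from the other libraries of their groups. Read depth, estimated from the steps between low RPKM values, was 18.8 to 35.1 M reads across the 6 libraries of phr1phl4 and Col without phosphate. The comparisons with Col and with phr1 were therefore also made with each phr1phl4 library alone, where the lone library is assumed to vary like the rest, and all comparisons with the class as a term of the fit. Replicate 1 alone against Col is the comparison within a single class.

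A gene was called when limma, fitted across all tested genes with Benjamini-Hochberg adjustment, gave an adjusted p under 0.05 and the log2(RPKM + 1) difference reached 1. That scale understates the change of low genes. By this rule 2729 genes were higher and 1284 lower in phr1phl4 than in Col, which is 18.9% of the genes tested (12.9% higher and 6.05% lower). In 4006 of these 4013 genes the 3 phr1phl4 values and the 3 Col values did not overlap. The rule for a call selects for such separation, so a lack of overlap among called genes is no separate support, here or in the lists below. Its share over all tested genes was not counted. Replicate 1 alone gave 2798 calls, replicate 2 alone 3295 and replicate 3 alone 5163. The genes called in the same direction with each library alone numbered 2358 (1629 higher and 729 lower), or 11.1% of those tested (7.68% higher and 3.44% lower). With the library class as a term, 2753 genes were called (13.0%, with 8.58% higher and 4.4% lower). The median difference over all tested genes was 0.07.

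**Figure D1:**
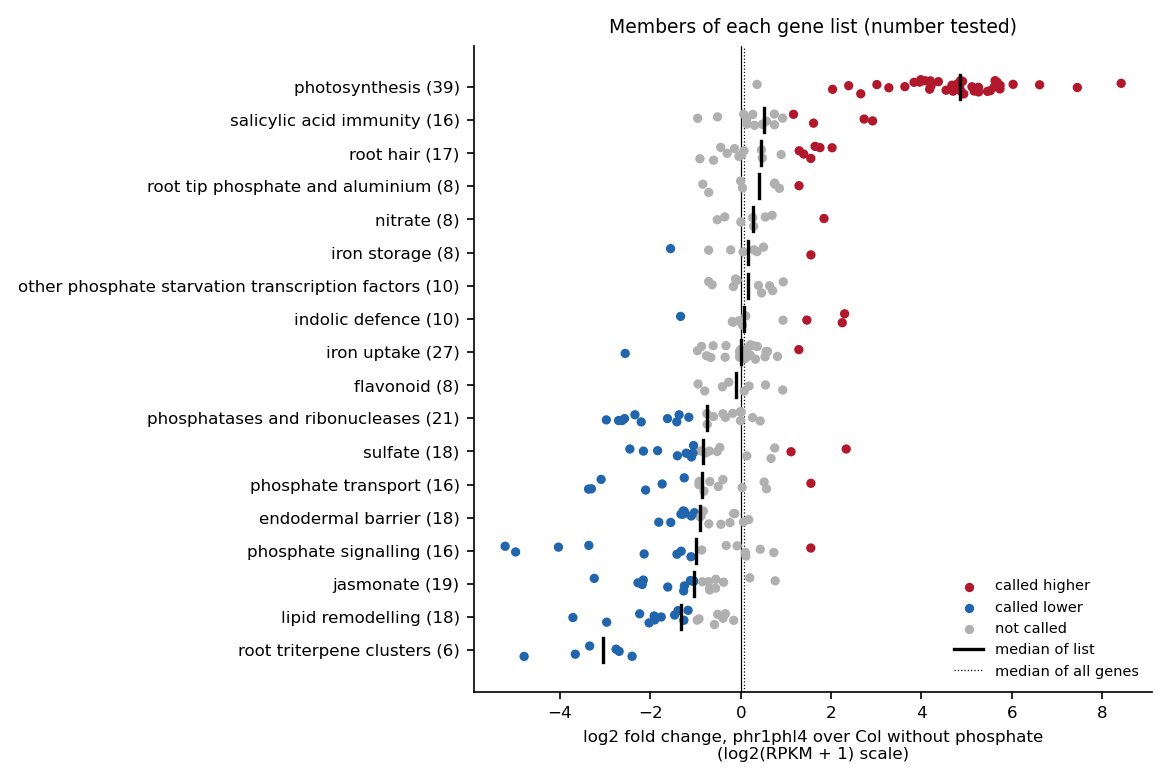
Log2 fold change of phr1phl4 over Col without phosphate (x axis, log2(RPKM + 1) scale) for the tested members of 18 gene lists (y axis, number tested in brackets). Red points were called higher, blue points lower and grey points not called. Black bars mark list medians and the dotted line the median of all tested genes. Photosynthesis genes lie furthest to the right and root triterpene genes furthest to the left by median.

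Among the regulators and small RNAs of phosphate signalling, 8 of 16 tested members fell in phr1phl4, 1 rose and 7 were not called, with a list median of -0.98. The shares were 50% lower and 6.25% higher, beside 6.05% and 12.9% of all tested genes. MIR399D (AT2G34202), a precursor of miR399, had 0.529, 2.56 and 1.3 RPKM in phr1phl4, against 116, 108 and 49.1 RPKM in Col, a log2 fold change of -5.21 ± 0.31 (SE). These are levels of the precursor transcript in poly(A)-selected RNA, not of the mature microRNA. The Col libraries were all far above those of phr1phl4, though they differed among themselves. The SE of MIR399D rests on a spread shared with groups where it was 0 in every library, and may be too small for these libraries. SPX3 (AT2G45130), a feedback repressor, had 20.6, 21.1 and 17.3 RPKM in phr1phl4, 123, 155 and 138 RPKM in phr1, 463, 573 and 406 RPKM in phl4 and 662, 652 and 637 RPKM in Col. The 4 groups did not overlap for SPX3, with phl4 next to Col, and the change over Col was -4.98 ± 0.20 (SE, limma adjusted p = 1.70e-27). IPS1 (AT3G09922), a non-coding RNA that captures miR399, had 140.4, 127 and 107 RPKM in phr1phl4 and 2361, 2068 and 1756 RPKM in Col, a log2 fold change of -4.03.

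Other members of the list had smaller differences or lower levels. MIR399C changed by -3.36, while MIR399B was listed at 0 in all 3 phr1phl4 libraries, against 3.34, 3.8 and 3.09 RPKM in Col. SPX1 changed by -1.10, with 350.3, 375 and 357 RPKM in phr1phl4 and 832, 756 and 737 RPKM in Col. MIR827 (-1.41) and the IPS1 relative AT4 (-1.32) were called in the joint fit but not with each library alone, and the values of MIR827 overlapped between the groups. SPX2 (-0.08), SPX4 (0.73) and PHO2 (0.11) were not called. NLA, a ubiquitin ligase that marks PHT1 transporters for removal, rose by 1.55, with 20.6, 19.3 and 15.3 RPKM in phr1phl4 and 6.71, 5.38 and 4.79 RPKM in Col. NLA overlaps another gene in the annotation, and the counting is not stated to use strand.

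The mature microRNAs of the precursors that were called lower are shown because 3 of these precursors share a seed in 1 of their products. They are RefSeq sequences of the TAIR10.1 build, with bases 2 to 8, the seed, in capitals.
miR399d: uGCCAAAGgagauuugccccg
miR399c-3p: uGCCAAAGgagaguugcccug
miR399c-5p: gGGCAUCUuucuauuggcagg
miR399b: uGCCAAAGgagaguugcccug
miR827: uUAGAUGAccaucaacaaacu
The products miR399b, miR399c-3p and miR399d carry 1 seed, and miR399b and miR399c-3p are identical. The product miR399c-5p, from the other arm of its precursor, and miR827 each have another seed.

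The P1BS element, GNATATNC with N for any base, reads the same on both strands. In windows of 300 bases before the annotated gene start it was present in 6.66% of 21006 tested genes with a window, in 9.57% of the 1275 genes called lower and in 6.58% of the 2659 called higher. Among genes lower with each library alone the share was 12% of 725. Among members of the phosphate lists (signalling, transport, phosphatases and lipids) it was 51.4% of the 35 called lower and 25% of the 36 not called lower. The 4 members with the largest fall whose window holds the element are printed from the gene's own strand, 5' to 3', ending at the base before the annotated start, with each element in capitals. The windows come from RefSeq TAIR10.1 and lie at chr2:14443078-14443377 (minus strand, MIR399D), chr2:18606110-18606409 (plus strand, SPX3), chr3:845097-845396 (minus strand, the phospholipase gene NPC4) and chr5:24962185-24962484 (plus strand, MIR399C).
MIR399D: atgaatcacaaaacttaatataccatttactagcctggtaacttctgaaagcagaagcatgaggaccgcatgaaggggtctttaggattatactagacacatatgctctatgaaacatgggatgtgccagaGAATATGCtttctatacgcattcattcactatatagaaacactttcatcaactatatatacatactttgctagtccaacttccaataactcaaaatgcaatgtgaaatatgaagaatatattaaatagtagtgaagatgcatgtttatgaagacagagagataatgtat
SPX3: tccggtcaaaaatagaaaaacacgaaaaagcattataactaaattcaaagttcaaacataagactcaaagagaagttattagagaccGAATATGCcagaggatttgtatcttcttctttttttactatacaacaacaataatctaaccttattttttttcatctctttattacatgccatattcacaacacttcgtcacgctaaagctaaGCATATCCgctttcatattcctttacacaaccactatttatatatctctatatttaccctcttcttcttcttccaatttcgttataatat
NPC4: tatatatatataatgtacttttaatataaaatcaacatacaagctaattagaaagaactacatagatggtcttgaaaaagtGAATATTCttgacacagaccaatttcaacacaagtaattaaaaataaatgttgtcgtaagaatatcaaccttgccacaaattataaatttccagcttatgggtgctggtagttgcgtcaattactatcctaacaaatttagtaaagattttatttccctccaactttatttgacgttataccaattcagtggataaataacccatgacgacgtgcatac
MIR399C: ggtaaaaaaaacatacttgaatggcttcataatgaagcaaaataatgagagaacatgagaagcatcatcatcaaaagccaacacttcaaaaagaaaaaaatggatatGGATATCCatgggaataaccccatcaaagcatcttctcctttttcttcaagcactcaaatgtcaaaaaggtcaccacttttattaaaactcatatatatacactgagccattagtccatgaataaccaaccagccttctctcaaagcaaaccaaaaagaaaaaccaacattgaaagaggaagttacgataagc
MIR399D, NPC4 and MIR399C hold 1 element each, at 161, 211 and 185 bases from the start, and SPX3 holds 2, at 205 and 82 bases. A match is a description of these letters and not a measured binding site.

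**Figure D2:**
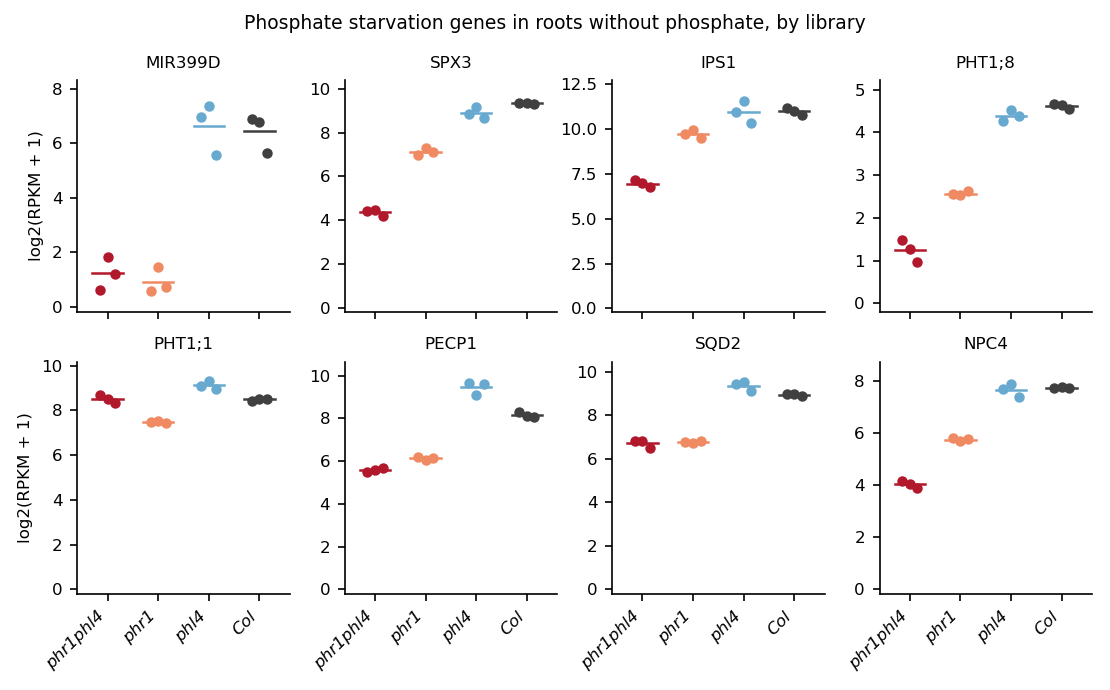
Level of 8 phosphate starvation genes, as log2(RPKM + 1), in each library of phr1phl4, phr1, phl4 and Col without phosphate (points) with the group mean (bar). MIR399D and SQD2 lie at about the same level in phr1phl4 and phr1, SPX3, IPS1, PHT1;8 and NPC4 lie lower in phr1phl4 than in phr1, and PHT1;1 lies higher in phr1phl4 than in phr1.

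Among phosphate transporters, low levels in phr1phl4 did not extend to the uptake carrier PHT1;1. Of 16 tested members of the transport list 6 fell, 1 rose and 9 were not called (median -0.87), and all 7 calls held with each library alone. This was 37.5% lower and 6.25% higher, beside 6.05% and 12.9% of all tested genes. PHT1;8 (AT1G20860), a plasma membrane phosphate carrier, had 1.78, 1.43 and 0.945 RPKM in phr1phl4 and 24.1, 23.8 and 22.2 RPKM in Col, a log2 fold change of -3.37. PHT1;7 (-3.30), PHT1;5 (-3.09), PHT1;9 (-2.11) and PHT1;4 (-1.25) fell as well, as did PHO1;H1 (-1.74), which loads phosphate into the xylem. PHT1;1, a main root uptake carrier, had 412, 369 and 324 RPKM in phr1phl4, 177, 180.4 and 173 RPKM in phr1, 551, 640.1 and 499 RPKM in phl4 and 345, 368 and 363 RPKM in Col. Its phr1phl4 and Col values overlapped (log2 0.03, not called), while all 3 phr1phl4 values lay above those of phr1 (1.05, called). VPE2, which exports phosphate from the vacuole, rose by 1.55, with 22.3, 21.7 and 22.4 RPKM in phr1phl4 and 6.51, 6.67 and 7.49 RPKM in Col.

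Genes for phosphate recycling by phosphatases and ribonucleases fell in 10 of 21 tested cases, none rose and 11 were not called (median -0.75). The share lower was 47.6%, against 6.05% of all tested genes. The 10 calls held with each library alone, and the groups did not overlap in any of them. PAP24 (-2.97), PAP22 (-2.70) and PAP14 (-2.63), which are purple acid phosphatases, led the list. PECP1 (AT1G17710), which removes phosphate from phosphocholine and phosphoethanolamine, had 43.9, 46.5 and 50.6 RPKM in phr1phl4, 70.9, 65.9 and 69.4 RPKM in phr1, 799.6, 549 and 786 RPKM in phl4 and 311, 275 and 266 RPKM in Col. Its change over Col was -2.57 ± 0.21 (SE), and phl4 lay above Col. RNS1, a secreted ribonuclease, fell by 1.15, while PAP12 (-0.39), PAP10 (-0.18) and RNS2 (0.43) were not called.

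Of 18 tested genes of membrane lipid remodelling, 11 fell, none rose and 7 were not called, with a median of -1.32, and the 11 calls held with each library alone. The share lower was 61.1%, against 6.05% of all tested genes. NPC4 (AT3G03530), a phospholipase C that degrades phosphatidylcholine, had 16.4, 15.4 and 13.7 RPKM in phr1phl4, 53.9, 49.5 and 52.6 RPKM in phr1, 202, 234 and 163 RPKM in phl4 and 210.2, 215 and 207 RPKM in Col. It fell by 3.71 on the log2 scale against Col, and the phr1 libraries lay between. SQD2 (AT5G01220), which makes sulfolipid, had 114, 111 and 88.8 RPKM in phr1phl4, 107, 106 and 112 RPKM in phr1, 681, 738 and 560.3 RPKM in phl4 and 504, 497 and 478 RPKM in Col. The 2 groups carrying phr1 overlapped for SQD2 and both lay far below Col (-2.24 for phr1phl4). The galactolipid synthases MGD3 (-2.97) and MGD2 (-1.92) and the phosphatidate phosphatase PAH1 (-2.03) fell, whereas MGD1 (-0.39) and DGD1 (-0.34), which make the bulk of plastid galactolipid, were not called.

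Transcription factors linked to phosphate starvation outside the PHR1 family gave no call among 10 tested (median 0.16). WRKY45 (0.94) and WRKY6 (-0.71) had the largest differences in either direction.

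A wider set came from libraries outside the contrast, the genes called higher without phosphate in the phl1 mutant (7.5% of those tested). The phl1 libraries differed technically too. Replicate 3 without phosphate stood in the second class (length slope -0.293) and replicate 3 with phosphate in the third (0.277). The part of this in the choice of genes was not tested. Of the 1590 genes in the set, 344 (21.6%) were lower and 178 (11.2%) higher in phr1phl4 than in Col (median -0.14). Among all tested genes 6.05% were lower and 12.9% higher, so only the share lower exceeded that of all genes. With each library alone 280 were lower and 78 higher, and with the class term 369 were lower and 77 higher. The number higher thus moved with the library handling. It also moved over all tested genes, from 2729 to 1629 with each library alone and 1820 with the class term.

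Genes for sulfate, iron and nitrate were read beside all tested genes, of which 12.9% were called higher and 6.05% lower. In the sulfate list 8 of 18 fell and 2 rose (median -0.83), and 5 and 1 of these held with each library alone. The share lower, 44.4%, was above that of all genes, and the share higher, 11.1%, was not. SULTR2;1 (AT5G10180), a sulfate carrier of the root vasculature, had 18.8, 18.6 and 14.2 RPKM in phr1phl4 and 97.6, 97.5 and 98.5 RPKM in Col (-2.45), whereas its paralog SULTR2;2 had 18.4, 15.2 and 13.5 RPKM in phr1phl4 and 2.42, 1.9 and 2.56 RPKM in Col (2.34). The pair moved in opposite directions without overlap between groups, and SULTR2;2 overlaps another gene in the annotation. LSU1, a sulfur deficiency marker, changed by -2.15, and SULTR1;3 by -1.84.

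Of 27 iron uptake genes, NAS2 (-2.56) fell and NAS4 (1.29) rose, and 25 were not called. Both encode nicotianamine synthase, which makes a metal chelator. Among 8 iron storage genes VTL1 (-1.55) fell and VTL5 (1.55) rose. VTL5, a vacuolar iron transporter-like gene, had 44.7, 55.4 and 87.4 RPKM in phr1phl4 and 20.4, 19.1 and 20.0 RPKM in Col, and its call was lost with replicate 1 alone (1.13), with the class term (0.95) and with the length, GC and adenine slopes as covariates (0.86). In the nitrate list 1 of 8 was called, NRT3.1, a partner protein of high-affinity nitrate carriers, with 40.4, 40.4 and 47.6 RPKM in phr1phl4 and 12, 10.3 and 11.3 RPKM in Col (1.84). Of 8 genes of the root tip response to phosphate and aluminium, ALMT1, a malate channel, was called (1.29), a call lost with the slope covariates (0.93). The shares called higher were 3.70% for iron uptake and 12.5% each for iron storage, nitrate and root tip genes, none above the 12.9% of all tested genes. Shares called lower were 3.70% for iron uptake and 12.5%, a single gene, for iron storage, against 6.05% of all tested genes.

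Nuclear genes for photosynthesis had the largest median difference of the 18 lists. Of 39 tested, 38 were called higher, all 38 with each library alone and without overlap between groups, and the list median was 4.85. Of all genes tested, 12.9% were called higher, and 7.68% with each library alone. The summed level of the 39 genes was 3219, 3406 and 4157 RPKM in phr1phl4, against 58.7, 60.7 and 59.99 RPKM in Col. LHCB1.3 (AT1G29930), a chlorophyll-binding antenna protein of photosystem II, had 722, 757 and 766 RPKM in phr1phl4, 4.86, 7.05 and 5.36 RPKM in phr1, 49, 36.7 and 38 RPKM in phl4 and 0.90, 1.27 and 1.42 RPKM in Col. The 4 groups did not overlap, and the log2 fold change over Col was 8.42 ± 0.30 (SE, limma adjusted p = 7.48e-30). Reads of the near-identical LHCB1 genes can be shared, and LHCB1.3 overlaps another gene.

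All 16 tested genes of light-harvesting proteins rose, by 3.28 to 8.42, as did the 9 of photosystem I subunits (3.84 to 6.62) and the 5 of photosystem II subunits (4.21 to 5.12). PSAG (6.62) and PSAD1 (6.03) led the photosystem I genes. RBCS1A, a small subunit of the carbon-fixing enzyme Rubisco, had 212, 229 and 305 RPKM in phr1phl4 and 0.697, 0.209 and 0.361 RPKM in Col (7.45). RBCS2B, another small subunit, had 2.58, 4.29 and 6.59 RPKM in phr1phl4 and was listed at 0 in the 3 Col libraries. GLK2, a transcription factor of chloroplast genes, had 20.7, 19.3 and 20.7 RPKM in phr1phl4 and 4.58, 3.99 and 4.02 RPKM in Col (2.03), whereas its paralog GLK1 stayed below 1 RPKM in every library of both groups and was not called. Over the other 11 genotypes without phosphate, the summed level ranged from 45.2 to 1610 RPKM in 33 libraries, with its maximum in the quadruple mutant phr1phl1phl2phl3, so no library of another genotype reached the lowest phr1phl4 library.

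**Figure D3:**
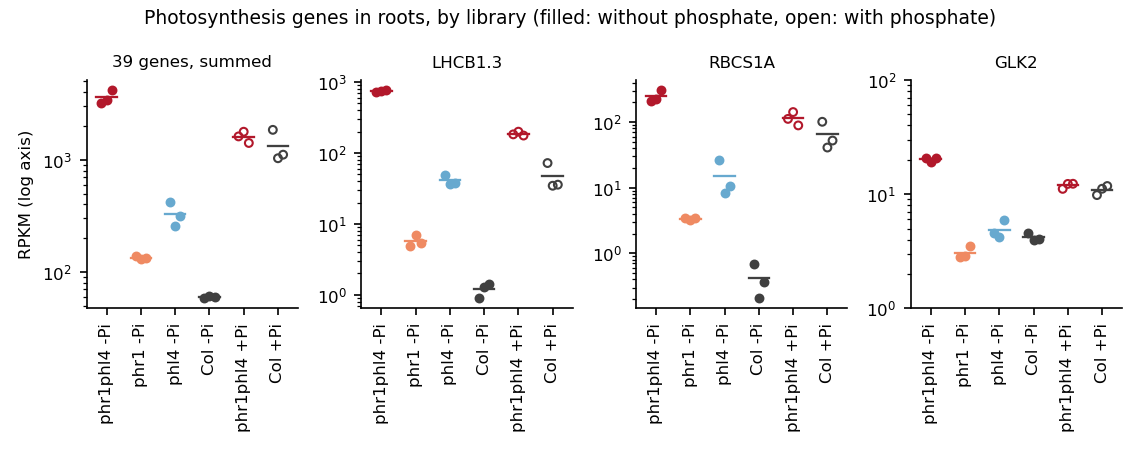
Level in RPKM (log axis) of the 39 photosynthesis genes summed, LHCB1.3, RBCS1A and GLK2 in each library (points; filled without phosphate, open with phosphate) with the group mean (bar). Without phosphate the sum lies between 3219 and 4157 RPKM in phr1phl4 and between 58.7 and 60.7 RPKM in Col. With phosphate the groups overlap through Col replicate 1. That library and phr1phl4 replicate 2 with phosphate are of another technical class than the rest of their groups.

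Markers of other tissues and the plastid genome were read beside this list. Transcripts of the chloroplast genome made up 1.06%, 0.983% and 0.969% of all RPKM in phr1phl4, against 0.698%, 0.614% and 0.650% in Col. The shares were 0.827%, 0.909% and 0.699% in phr1 and 0.150%, 0.319% and 0.342% in phl4, so phl4 lay below Col here. STM, FAMA and SPCH, which mark the shoot meristem and developing stomata, were at most 0.214 RPKM in all 6 libraries. Of the 9 shoot markers, 4 belong to the photosynthesis list, and the other 5 summed to 61.8 to 68.4 RPKM in phr1phl4, 73.3 to 78.9 RPKM in phr1 and 37.4 to 43.3 RPKM in Col. Of these 5 only PDF1, an epidermal gene, was called, with 46.5, 49.7 and 46.4 RPKM in phr1phl4, 57, 53.1 and 50.9 RPKM in phr1 and 17.8, 19.7 and 15.4 RPKM in Col. The part of shoot tissue in the photosynthesis result was not tested. The 3 seed storage markers summed to 7.61 to 10.7 RPKM in phr1phl4, 4.65 to 6.26 RPKM in phl4 and 0.0210 to 0.0948 RPKM in Col, with CRA1 (2.77) and OLEO1 (1.79) called and AT2S3 at most 0.333 RPKM.

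Among root cell markers, IRX3 and SCR were called lower. The xylem pair summed to 6.08 to 11.2 RPKM in phr1phl4 and 31.3 to 32.7 RPKM in Col, mostly IRX3, a cellulose synthase of secondary walls (-1.91). The endodermis markers summed to 94.0 to 106 RPKM in phr1phl4 and 116 to 123 RPKM in Col, where SCR, an endodermal regulator, fell (-1.10). The stele pair summed to 48.8 to 63.6 RPKM in phr1phl4 and 71.6 to 73.7 RPKM in Col. The single markers of non-hair epidermis, GL2, with 4.75 to 5.58 RPKM in phr1phl4 and 8.76 to 10.3 RPKM in Col, and of cortex, CO2, with 1.15 to 1.67 RPKM in phr1phl4 and 2.04 to 3.14 RPKM in Col, were lower without overlap but not called. The phloem pair summed to 28.9 to 34.8 RPKM in phr1phl4 and 49.5 to 52.4 RPKM in Col. Root hair markers gave 160 to 181 RPKM in phr1phl4 and 151 to 164 RPKM in Col, root cap markers 18.7 to 19.5 and 16.1 to 20.0, and root tip markers 16.2 to 19.4 and 21.5 to 22.3 in the same order. How far these shifts enter the gene results was not tested.

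Genes outside the photosynthesis list also rose far above Col. EARLI1 (AT4G12480), a lipid transfer-like protein, had 705, 691 and 613 RPKM in phr1phl4, 93.3, 92.2 and 92.9 RPKM in phr1, 76.5, 79.2 and 66.5 RPKM in phl4 and 5.77, 4.98 and 5.89 RPKM in Col. Its relative AZI1, known from the priming of systemic immunity, had 578, 620.3 and 643 RPKM in phr1phl4 and 8.84, 7.6 and 7.65 RPKM in Col. EARLI1 (6.68) and AZI1 (6.09) were higher in every phr1phl4 library than in any library of the other 3 groups. The glycine-rich protein genes GRP3S (7.64) and GRP-3 (6.06), ECS1 (6.18), the plastid glyceraldehyde phosphate dehydrogenase GAPA (5.85), the dark-induced SEN1 (5.15) and AT5G43450 (4.92) rose as well. ATCG00020, a gene of the plastid genome, had 351, 319.7 and 252 RPKM in phr1phl4 and 4.14, 3.78 and 3.84 RPKM in Col, measured on poly(A)-selected RNA.

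AT3G01345 had 88.5, 87.9 and 85.4 RPKM in phr1phl4 and 70.9, 60.4 and 65 RPKM in phr1, against 0.126, 0.456 and 0.0221 RPKM in phl4 and 0.326, 0.318 and 0.201 RPKM in Col. Its level thus went with phr1 in these 4 groups, and phr1phl4 did not differ from phr1 by a call (0.41). It did not go with phr1 in every genotype. Without phosphate AT3G01345 had 0.338 to 0.554 RPKM in phr1phl1 and 0.908 to 1.63 RPKM in phr1phl1phl2.

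Outside the lists, AT5G04120, annotated as a phosphoglycerate mutase family protein, fell most. It had 2.28, 3.35 and 2.18 RPKM in phr1phl4, 17.7, 18.5 and 18.8 RPKM in phr1, 96.2, 73.3 and 105 RPKM in phl4 and 123, 126 and 115 RPKM in Col, a change of -5.10 ± 0.24 (SE). OCT1, an organic cation and carnitine transporter, had 14, 14.2 and 13.9 RPKM in phr1phl4 and 213, 231 and 256 RPKM in Col. ASN1, an asparagine synthetase, had 9.69, 9.63 and 9.11 RPKM in phr1phl4 and 84.3, 87.8 and 89 RPKM in Col. These 3 genes overlap neighbours in the annotation, and their phr1phl4 and Col values did not overlap. AT5G17340 (-4.55), the RING/U-box gene AT2G45135 (-4.42), the pseudogenes AT3G56275 (-4.11) and AT3G29784 (-4.09), the cysteine-rich LCR85 (-3.91) and the cytochrome P450 gene CYP716A2 (-3.86) fell too.

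**Figure D4:**
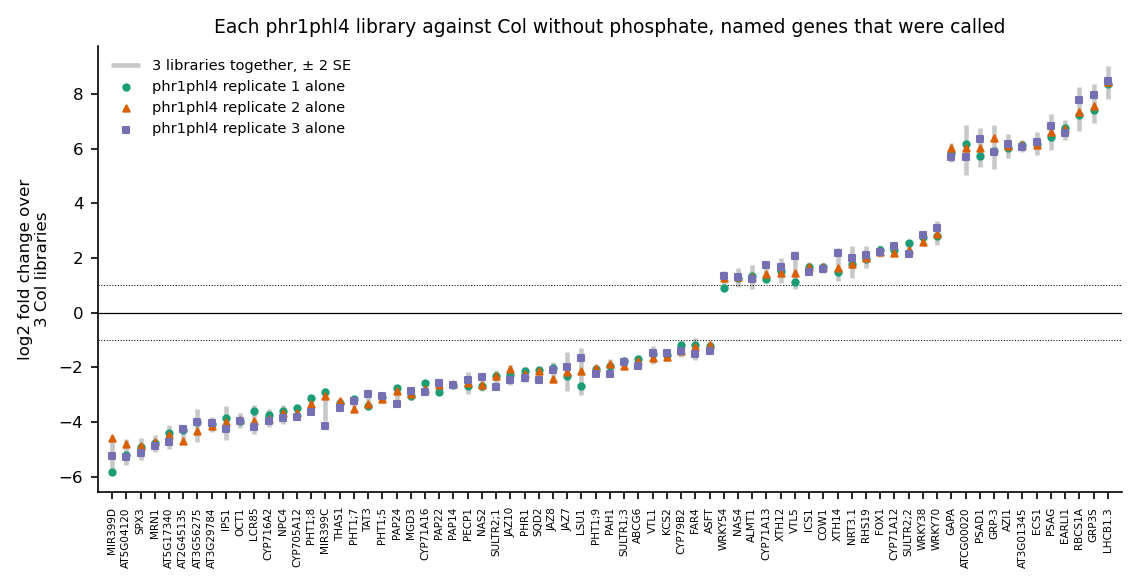
Log2 fold change over the 3 Col libraries without phosphate (y axis) of each phr1phl4 library alone (markers) for called genes that are named for their difference from Col (x axis), with the joint estimate ± 2 SE (grey bars) and dotted lines at the size asked for a call. All 3 markers lie on the same side of 0 for every gene shown. The markers of MIR399C, MIR399D and LSU1 spread over more than 1 log2 unit.

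Genes of jasmonate signalling were lower in phr1phl4. Of 19 tested, 10 fell, none rose and 9 were not called (median -1.04), and 7 of the 10 held with each library alone. The share lower was 52.6%, beside 6.05% of all tested genes, or 3.44% of them with each library alone. TAT3 (AT2G24850), a jasmonate-responsive tyrosine aminotransferase, had 12, 12.7 and 16.7 RPKM in phr1phl4, 118, 99.4 and 108 RPKM in phr1, 49.6, 41.9 and 50.7 RPKM in phl4 and 135, 143 and 135 RPKM in Col (-3.24 over Col). The 4 groups did not overlap, and phr1 lay nearest to Col. Of 8 JAZ repressor genes, 5 fell, with JAZ10 (-2.27), JAZ8 (-2.18) and JAZ7 (-2.16) in front. The synthesis enzymes AOS (-1.25), LOX3 (-1.26) and LOX4 (-1.04) fell, and the master regulator MYC2 (-0.55) was not called.

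All 6 genes of the root triterpene clusters fell, each with every library alone and without overlap, with a median of -3.05. Over all tested genes 6.05% were lower, and 3.44% with each library alone. MRN1 (AT5G42600), marneral synthase, had 3.03, 3.23 and 2.76 RPKM in phr1phl4, 39.4, 41.1 and 41.5 RPKM in phr1, 10.6, 11.7 and 9.62 RPKM in phl4 and 108, 110.1 and 112 RPKM in Col. The log2 fold change was -4.79 ± 0.15 over Col (limma adjusted p = 5.22e-32), and all 4 groups were apart. Its cluster neighbours CYP705A12 (-3.66) and CYP71A16 (-2.76) fell, as did the thalianol synthase THAS1 (-3.34), with 29.4, 30.8 and 26.1 RPKM in phr1phl4 and 296, 307 and 299.6 RPKM in Col, and its partners THAD (-2.69) and THAH (-2.40).

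Genes of the endodermal barrier fell in 8 of 18 cases and none rose (median -0.89), and 7 held with each library alone. That is 44.4% lower, where 6.05% of all tested genes were lower. ABCG6, a suberin transporter, had 15.1, 14.5 and 12.6 RPKM in phr1phl4 and 51.6, 51.4 and 52.3 RPKM in Col (-1.81). KCS2 (-1.55), FAR4 (-1.32) and ASFT (-1.27), which build suberin monomers, fell, while the Casparian strip genes CASP1 (-0.16), ESB1 (-0.44) and MYB36 (0.18) were not called.

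Root hair genes rose in 6 of 17 cases, all with each library alone, and none fell (median 0.46). The share higher was 35.3%, against 12.9% of all tested genes, or 7.68% of them with each library alone. Beside this rise, the summed root hair cell markers overlapped between groups, at 160 to 181 RPKM in phr1phl4 and 151 to 164 RPKM in Col. The non-hair epidermis marker GL2 was 5.58, 5.0 and 4.75 RPKM in phr1phl4 and 10.3, 9.32 and 8.76 RPKM in Col. The part of cell type shares in the result was not tested. RHS19, a root hair peroxidase, had 206, 211 and 225 RPKM in phr1phl4, 52.2, 44.2 and 50.1 RPKM in phr1, 295, 262 and 294 RPKM in phl4 and 43.9, 54.9 and 57.9 RPKM in Col. The phr1phl4 values lay below those of phl4 and above those of phr1 and Col. COW1 (1.65), needed for hair tip growth, and the cell wall enzymes XTH14 (1.75), XTH12 (1.55) and XTH13 (1.39) rose, and the regulators RHD6 (-0.90) and RSL4 (0.02) were not called.

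In the salicylic acid list 4 of 16 rose and none fell (median 0.52), and 3 held with each library alone. The share higher was 25%, against 12.9% of all tested genes, or 7.68% of them with each library alone. WRKY70, a transcription factor between the salicylic acid and jasmonate pathways, had 7.91, 8.44 and 9.99 RPKM in phr1phl4, 11.3, 8.43 and 10.1 RPKM in phr1, 1.03, 0.662 and 0.674 RPKM in phl4 and 0.169, 0.462 and 0.25 RPKM in Col. Its values in phr1phl4 and phr1 overlapped and lay above the rest (2.92 over Col). WRKY38 (2.73) and ICS1 (1.61), which makes a salicylic acid precursor, rose likewise, and the call of WRKY54 (1.17) was lost with replicate 1 alone (0.90). The marker genes PR1, PR2 and PR5 did not reach the level asked for a test.

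In the indolic defence list, which leads to camalexin and related compounds, 3 of 10 rose and 1 fell against Col. These shares, 30% and 10%, stand beside 12.9% higher and 6.05% lower among all tested genes. CYP71A12 (2.30), FOX1 (2.25) and CYP71A13 (1.46) rose, and CYP79B2 (-1.33), which starts the pathway from tryptophan, fell. CYP71A12, which acts on indole acetaldoxime, had 26.1, 24.5 and 28.9 RPKM in phr1phl4, 279, 283 and 295 RPKM in phr1, 3.29, 2.58 and 3.89 RPKM in phl4 and 4.28, 4.99 and 4.48 RPKM in Col. The phr1phl4 values lay above Col and far below phr1 (-3.38), although reads can be shared with the near-identical CYP71A13. CYP82C2, which hydroxylates indole carbonyl nitrile, had 0.0337, 0.127 and 0.303 RPKM in phr1phl4 and 39, 36.2 and 36.8 RPKM in phr1, against 0.043, 0.039 and 0.0227 RPKM in phl4 and 0.0956, 0.0544 and 0.206 RPKM in Col. High CYP82C2 was thus seen in phr1 among these groups and not in phr1phl4 (-5.06 ± 0.07 over phr1, limma adjusted p = 1.14e-50). The shared spread takes in many groups near 0, so this SE and p-value may overstate the precision. Other double mutants carrying phr1 also lay below phr1 without phosphate, with 0.484 to 0.838 RPKM in phr1phl1, 3.61 to 3.85 in phr1phl2 and 8.62 to 10.2 in phr1phl3.

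**Figure D5:**
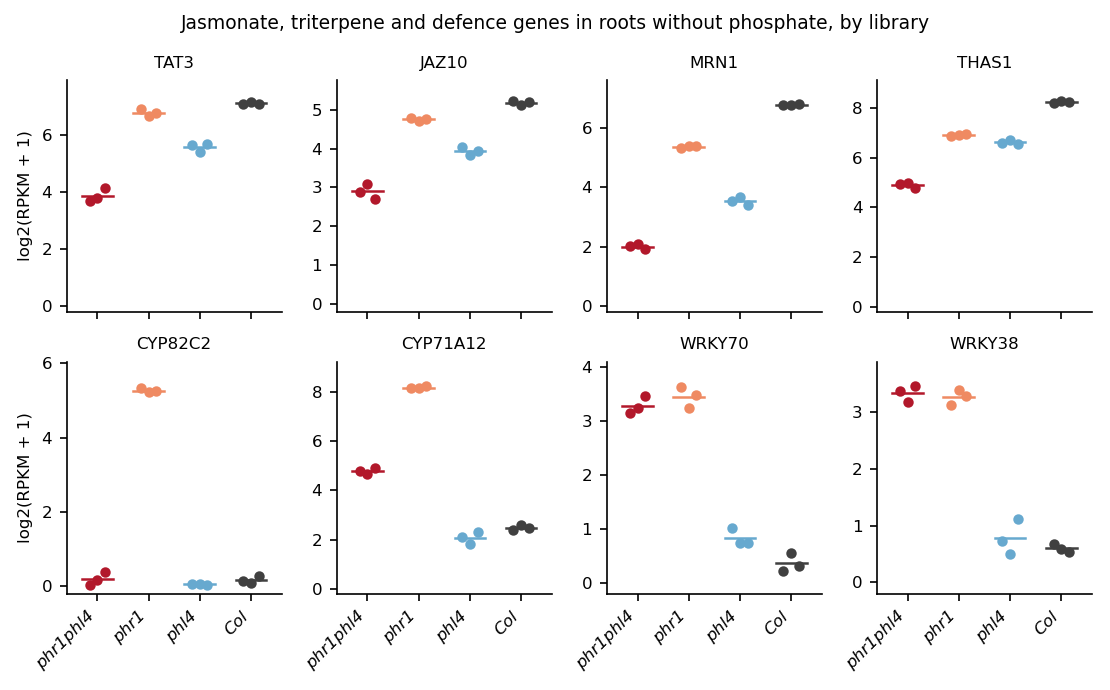
Level of 8 jasmonate, triterpene and defence genes, as log2(RPKM + 1), in each library of phr1phl4, phr1, phl4 and Col without phosphate (points) with the group mean (bar). TAT3, JAZ10, MRN1 and THAS1 are lowest in phr1phl4, CYP82C2 and CYP71A12 are highest in phr1, and WRKY70 and WRKY38 are at similar levels in phr1phl4 and phr1.

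The direct contrast of phr1phl4 with phr1 tests how the double mutant differs from phr1, and not what is particular to phl4. It called 2596 genes, 1571 higher and 1025 lower (12.2% of those tested, 7.41% higher and 4.83% lower), and 1690 (7.97%) with the library class as a term. Photosynthesis genes were higher in 38 of 39 cases (median 3.99). Triterpene genes were lower in 6 of 6 (median -1.97), indolic defence genes in 8 of 10 (median -1.83) and jasmonate genes in 7 of 19 with 1 higher (median -0.85). Root hair genes were higher in 7 of 17 (median 0.51). In signalling 3 of 16 were lower and 1 higher, in transport 2 of 16 lower and 3 higher, among phosphatases and ribonucleases 1 of 21 lower, and among lipid genes 2 of 18 lower. SPX3 (-2.75), IPS1 (-2.76), AT4 (-1.28), PHT1;5 (-1.72), PHT1;8 (-1.33), PAP7 (-1.48) and NPC4 (-1.72) were lower than in phr1, and PHT1;2 (1.63), which shares near-identical sequence with PHT1;3, was higher. For MIR399D the difference was 0.30 ± 0.31 (SE) and for SQD2 -0.06 ± 0.12 (SE), both not called. SPX3 was below phr1 in other double mutants too, with 9.07 to 10.5 RPKM in phr1phl1, 41.4 to 69.5 in phr1phl2 and 45.2 to 53.5 in phr1phl3. The summed photosynthesis level, 129 to 137 RPKM in phr1, was higher in these double mutants too. It was 482 to 616 RPKM in phr1phl1, 186 to 417 in phr1phl2 and 389 to 441 in phr1phl3. MRN1, 39.4 to 41.5 RPKM in phr1, had 20.8 to 23.1, 27.5 to 27.9 and 16.2 to 20.5 RPKM in the same order. For the photosynthesis sum and MRN1, phr1phl4 lay furthest from phr1.

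The genes highest over phr1 were LHCB1.3 (6.81), GRP3S (6.68), RBCS1A (5.82), ECS1 (5.61) and GRP-3 (5.42). The largest falls against phr1 were in defence genes and in genes outside the lists. Besides CYP82C2, AT1G26410, of the berberine bridge enzyme family, had 1.41, 1.3 and 1.33 RPKM in phr1phl4 and 69.1, 54.3 and 57 RPKM in phr1. AT4G04990 (-3.99) and CYP71A13 (-3.54) also fell, and the pseudogene AT4G03760 was near 0 in phr1phl4, against 15.4, 15.5 and 16.1 RPKM in phr1. AT4G03760 was likewise at most 0.0191 RPKM in Col and at 0 in phl4, so phr1 is the group that stands apart.

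The contrast of phr1phl4 with phl4 called 1872 genes, 1337 higher and 535 lower (8.83% of those tested, 6.3% higher and 2.52% lower). Lower were 7 of 16 signalling genes, 8 of 16 transport genes, 13 of 21 phosphatases and ribonucleases (median -1.61) and 13 of 18 lipid genes (median -1.59), while 1 signalling gene, NLA, was higher. Photosynthesis genes were higher in 38 of 39 (median 3.02), triterpene genes lower in 5 of 6 (median -1.34), indolic defence genes higher in 4 of 10 and salicylic acid genes in 5 of 16. Root hair genes were lower in 2 of 17 and none was higher. The genes highest over phl4 were AT3G01345 (6.22), SEN1 (5.15), AT5G43450 (5.02), ATCG00290 (4.88) and ATCG00020 (4.80), and those furthest below it MIR399D (-5.42), AT2G45135 (-4.98), AT5G04120 (-4.68), AT5G17340 (-4.57) and SPX3 (-4.53).

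Set beside each other, the single mutants had their own differences from the same Col libraries, which all 3 comparisons share. Against Col, phr1 gave 658 calls (3.1% of those tested, 2.32% higher and 0.783% lower) and phl4 1836 (8.66%, with 5.37% higher and 3.29% lower). All phr1 libraries stood in the technical class of Col, while phl4 replicates 1 and 3 and phr1phl4 replicates 2 and 3 did not. For phr1 and phl4, the part of the class in these counts and in the list counts below was not tested. The photosynthesis list had 38 members higher in phr1phl4, 13 in phr1 and 30 in phl4, with medians of 4.85, 0.76 and 1.73. The triterpene list had 6 lower in phr1phl4, 3 in phr1 and 6 in phl4, with medians of -3.05, -1.04 and -1.57. The jasmonate list had 10 lower in phr1phl4, 1 in phr1 and 8 in phl4, and the lipid list 11, 9 and 0 in the same order. Other lists had more calls in a single mutant. The salicylic acid list had 4 higher in phr1phl4, 9 in phr1 and 1 in phl4, the indolic defence list 3, 7 and 0, and the root hair list 6, 0 and 8 in that order.

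The difference from Col depended on the medium for 3159 genes, 2016 with a more positive and 1143 with a more negative difference without phosphate than with it (14.9% of those tested, 9.51% and 5.39%). With phosphate, phr1phl4 and Col differed in 1188 genes (5.6%, with 3.01% higher and 2.59% lower). The photosynthesis list had 38 of 39 members with a more positive difference without phosphate (median 4.65). With phosphate its summed level was 1616, 1779 and 1412 RPKM in phr1phl4 and 1849, 1032 and 1111 RPKM in Col. The overlap comes from Col replicate 1 (1849 RPKM), which stood in the second technical class, as did phr1phl4 replicate 2 (1779 RPKM). The remaining libraries, all of 1 class, had 1032 and 1111 RPKM in Col and 1616 and 1412 RPKM in phr1phl4. The part of the class in this sum was not tested. Within phr1phl4, 22 of the 39 genes were higher without phosphate than with it and none lower (median 1.11), and within Col 38 were lower and none higher (median -3.48). Over all tested genes, 9.26% were called for the medium in phr1phl4 (6.02% higher and 3.24% lower without phosphate) and 14.4% in Col (6.24% higher and 8.2% lower). All 6 triterpene genes had a more negative difference without phosphate (median -3.35), and with phosphate MRN1 was 58.5, 48.6 and 58.2 RPKM in phr1phl4 and 28.6, 41.7 and 38.1 RPKM in Col. AT5G04120 and ASN1 were higher in phr1phl4 with phosphate, at 82.9, 101 and 85.6 RPKM against 39.3, 20.7 and 24.5 RPKM in Col and 24.9, 27.2 and 30.7 RPKM against 3.2, 3.73 and 3.91 RPKM in Col, the opposite of their direction without it.

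Part of the phosphate lists still answered to the medium in phr1phl4. In phr1phl4 roots without phosphate, 7 of 16 signalling, 7 of 16 transport, 8 of 21 phosphatase and ribonuclease and 10 of 18 lipid genes were higher than with it. In Col these counts were 9, 12, 13 and 14. SPX3 had 1.05, 0.364 and 0.131 RPKM in phr1phl4 and 0.322, 1.27 and 1.18 RPKM in Col with phosphate, and MIR399D was listed at 0 in all 6 libraries. Of the phosphate lists 6 of 16 signalling, 8 of 16 transport, 10 of 21 phosphatase and ribonuclease and 11 of 18 lipid genes had a more negative difference without phosphate. The flavonoid list differed in another way. None of 8 tested genes was called without phosphate (median -0.09), with UGT78D1 (-0.94) furthest from Col, and CHS, which opens the flavonoid pathway, had 87.1, 70.6 and 87.1 RPKM in phr1phl4 and 129, 147 and 150.5 RPKM in Col. With phosphate, CHS had 39.7, 31.9 and 33.5 RPKM in phr1phl4 and 915, 755 and 805 RPKM in Col, all 8 genes were lower (median -4.32), and the difference between media was called in 7. In the iron uptake list 9 of 27 genes had a more positive and 2 a more negative difference without phosphate. The endodermal list was lower on both media, with 9 of 18 members called with phosphate (median -0.98), and 2 members had a called difference between media.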

How the data were processed

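The authors deposited RPKM values, reads scaled by gene length and library size, for 33602 genes in 72 root libraries. TAIR10, TopHat and edgeR are named per the submitters' processing notes, with versions and roles not given in the sources used here, and counts were not analysed here. Per the labels' protocols RNA was purified on columns and selected on oligo(dT) beads, with no statement on strand. No column lay outside the labelled samples and no 2 columns were identical.

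The 21206 genes that reached 1 RPKM in 3 or more libraries were tested on log2(RPKM + 1) with limma 3.58.1 in R 4.3.3, using 24 group means and 1 shared spread, empirical Bayes with trend and robust settings, 2-sided p-values and Benjamini-Hochberg adjustment over all tested genes. A call asked for an adjusted p under 0.05 and a log2 difference of at least 1. For genes at or near 0 in many groups the shared spread is narrow, and their SE and p-values may overstate the precision. Lists were described by counts and medians, with no set test. Python 3.11.15 with pandas 2.3.3 made the tables, and 32835 genes matched RefSeq TAIR10.1 for length, overlap and sequence. Depth was estimated from the steps between low values of single-exon genes as 11.0 to 40.4 M reads per library (median 22.8). Only 54.5% to 67.3% of those values fell within 0.05 of a whole read, so no count test was run.

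Genes and lists were chosen with earlier results of these data known. The text names the 12 called genes with the largest difference from Col in each direction, the 5 in each other contrast, up to 4 called members of each list, and further list members that were picked after their values were seen. Alternatives were a pseudocount of 0.1, no filter, rescaled libraries, the compared groups alone, a replicate block, a term for the library class, library slopes as covariates, each replicate left out and each phr1phl4 library alone.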

Additional observations from a re-analysis of the deposited data

Results flagged for a closer look

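For 3159 genes the difference between phr1phl4 and Col without phosphate departed from that with phosphate, by the interaction contrast in limma. The genes below had the largest such differences, on the log2(RPKM + 1) scale.

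Toward higher levels in phr1phl4 without phosphate, the difference between media was 7.22 for ATCG00020, 6.56 for RBCS1A, 6.39 for LHCB1.3, 6.12 for GRP3S and 5.96 for the plastocyanin gene PETE2. With phosphate, ATCG00020 had 13.3, 9.7 and 8.69 RPKM in phr1phl4 and 10.1, 55 and 31.7 RPKM in Col, and RBCS1A had 112, 142 and 89.1 RPKM in phr1phl4 and 101, 41 and 52.3 RPKM in Col. In PETE2 the Col libraries with phosphate differed among themselves, at 64.2, 11.8 and 20.4 RPKM, against 20.2, 28.4 and 16.9 RPKM in phr1phl4.

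Toward lower levels, it was -6.79 for AT5G04120, -5.96 for LCR85, -5.70 for ASN1, -5.40 for MRN1 and -5.21 for MIR399D. LCR85 had 1.01, 0.544 and 0.332 RPKM in phr1phl4 and 23.2, 27.8 and 19.3 RPKM in Col without phosphate, and 20.4, 11.7 and 16.5 RPKM in phr1phl4 and 2.1, 5.76 and 2.25 RPKM in Col with phosphate. AT5G04120, LCR85, ASN1 and MRN1 lay below Col without phosphate and above Col with it in every phr1phl4 library, while MIR399D was listed at 0 in both genotypes with phosphate.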

How the results depend on the processing

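Among the total counts of calls, those that moved by over 1.5 times were for phr1phl4 against phr1, where the 2596 calls became 1690 with the library class as a term and 1665 with replicate 1 of phr1phl4 alone, with 1479 and 1495 of the genes shared. Leaving out 1 library at a time gave 3382 to 4503 calls against Col, 2096 to 2956 against phr1, 1858 to 2031 against phl4 and 2484 to 4070 for the difference between media. Replicate numbers were not taken to pair the samples, since not every pair correlated above 0.1. The deviations of same-numbered phr1phl4 and Col libraries correlated at -0.17, 0.0028 and -0.15 and those of phr1phl4 and phl4 at -0.18, 0.40 and 0.77. A replicate block gave 4093, 2703, 1859 and 2683 calls for the comparisons in the same order. With the library slopes as covariates, an alternative chosen after seeing the data, 2775 genes were called against Col (1719 higher, against 2729 without them), and with a pseudocount of 0.1 there were 5224. Of 1712 alternatives for the 107 results of genes named by the rule 0 reversed a direction, 5 lost a call and 12 gained one, and the lost calls were those of VTL5, ALMT1 and WRKY54. Among list members outside the rule, MIR827 and AT4 also lost their call with 1 phr1phl4 library or more alone. So did members of the sulfate list (8 lower and 2 higher became 5 and 1), the jasmonate list (10 lower became 7) and the endodermal list (8 lower became 7). Precision is limited by 3 libraries a group, by 2 of the 3 phr1phl4 libraries standing in another technical class than Col, and by low RPKM in genes such as MIR399B and RBCS2B.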

Other observations

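AT3G01345 without phosphate had 85.4 to 88.5 RPKM in phr1phl4, 0.338 to 131 RPKM in the 18 libraries of the other genotypes that carry phr1, and 0.0221 to 0.456 RPKM in the 15 libraries without phr1. All libraries of phr1phl1 (0.338 to 0.554 RPKM) and phr1phl1phl2 (0.908 to 1.63 RPKM) lay far below those of the other genotypes that carry phr1. The pseudogene AT4G03760 was at most 0.0235 RPKM in phr1phl4 on that medium and reached 26.5 RPKM among the other genotypes.

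The seed storage gene CRA1 without phosphate had 5.08, 5.52 and 8.03 RPKM in phr1phl4 and 5.36, 4.52 and 3.3 RPKM in phl4, against 0.189, 0.195 and 0.0731 RPKM in phr1 and 0.021, 0.0477 and 0.0517 RPKM in Col. It was called against phr1 (2.63) and not against phl4 (0.42).

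VPE1, which exports phosphate from the vacuole like VPE2, had 239, 236 and 209 RPKM in phr1phl4 and 311, 319 and 333 RPKM in Col without phosphate, and 3.04, 4.11 and 3.83 RPKM in phr1phl4 and 31.6, 31.8 and 36.4 RPKM in Col with phosphate (2.38 for the difference between media). ABCG6 with phosphate had 6.3, 5.2 and 5.73 RPKM in phr1phl4 and 51.4, 61 and 61.3 RPKM in Col.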
